A study of Mus musculus with 24 samples.

Results

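The transcripts described here serve MHC class I antigen presentation and the immunoproteasome. They are 10 genes chosen by symbol, all present in both deposited expression tables of 46078 genes: the class I heavy chains H2-K1 and H2-D1, their light chain B2m, the peptide transporter genes Tap1 and Tap2, the loading factor Tapbp, the inducible proteasome subunits Psmb8, Psmb9 and Psmb10, and the transactivator Nlrc5. All 10 passed the filter on low values in sorted satellite cells, and 7 of the 10 passed it in cultured myoblasts.

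The study measured RNA in mouse muscle stem cells, called satellite cells, with and without reduced Chd4, the ATPase of the NuRD chromatin remodelling complex. In vivo, cells of Chd4dPax7ER and Chd4fl/fl mice were purified 3 days after cardiotoxin was injected, by the absence of SCA1 and CD45 and the presence of alpha7-integrin and CD34. The label Chd4dPax7ER names Pax7ER, but neither the way Chd4 was deleted nor any Cre or drug in the Chd4fl/fl mice is stated there. In vitro, primary myoblasts grown from satellite cells of resting Chd4fl/fl muscle received adenovirus coding for Cre (AdCRE) or for GFP (AdGFP) and were taken after 72 hours. All mice were C57BL/6 and 2 to 4 months old. Only AdCRE cultures received Cre, and what Cre does by itself cannot be told apart here from Chd4 loss. Each of the 4 groups had 4 libraries, numbered 1 to 4. The labels do not say that these came from separate animals or cultures, and p-values then cover library-to-library spread alone, which may be technical. Another 8 samples hold ATAC-seq and were not used here.

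Values were RPKM, a read count divided by gene length and by the reads of the library. Chd4 itself averaged 56.7 ± 8.37 RPKM in Chd4dPax7ER cells and 126.4 ± 6.77 RPKM in Chd4fl/fl cells (SD, n = 4 each), or 44.9% of control. In culture it averaged 20.8 ± 3.49 RPKM with AdCRE and 75.1 ± 7.75 RPKM with AdGFP, or 27.7% of control. Whole reads could be recovered from the in vitro values, which gave 26515649 to 30729565 reads in genes per AdCRE library and 23495059 to 38581383 per AdGFP library. In vivo the values were rounded and the depth is unknown. These are bulk samples, in which fewer cells of a type and less RNA per cell cannot be told apart.

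Class I molecules display peptides from inside the cell to CD8 T cells. Proteasomes cut proteins into peptides, Tap1 and Tap2 together move the peptides into the endoplasmic reticulum, and tapasin, the product of Tapbp, holds the empty heavy chain and B2m beside the transporter until a peptide is bound. Under interferon-gamma, cells make the catalytic subunits encoded by Psmb8, Psmb9 and Psmb10, which take the places of the constitutive subunits of Psmb5, Psmb6 and Psmb7. Nlrc5 raises transcription of class I genes through promoter elements known as the X and Y boxes. Resting skeletal muscle carries little class I, and more of it is found in inflamed or regenerating muscle.

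In the mouse reference GRCm38.p6, 7 of the 10 genes lie on chromosome 17, within 1.35 Mb of the major histocompatibility complex. Tapbp (17:33919478-33929290) and H2-K1 (17:33996012-34000619) stand at one end and H2-D1 (17:35263094-35267497) at the other. Between them Psmb9 (17:34182030-34187330), Tap1 (17:34187556-34197225), Psmb8 (17:34198195-34201454) and Tap2 (17:34204479-34216321) fill 34.3 kb. B2m is on chromosome 2 (2:122147687-122153082), and Psmb10 (8:105935728-105938392) and Nlrc5 (8:94434335-94527272) are on chromosome 8. Some annotated genes overlap members: Patl2 overlaps B2m, Gm19412 overlaps Tapbp, and 3 genes overlap Nlrc5. No source used here says whether counting used strand, so reads of overlapping genes cannot be told apart. H2-K1 and H2-D1 are close copies of each other and of the H2-Q genes, and how reads that match several of them were counted is not given, so their levels are less certain than those of the single-copy members.

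Promoter windows were read for 8 of the 10 members from the RefSeq table of GRCm38.p6; Tap2 and Nlrc5 have no entry. Each window is the 250 bases before a transcript start, 5′ to 3′ on the gene's strand. The windows of H2-K1 (chr17:34000348-34000597, minus strand), H2-D1 (chr17:35262844-35263093, plus strand) and B2m (chr2:122147437-122147686, plus strand) are shown because these genes form the class I molecule itself and all rose in vivo. Capitals mark matches, on either strand, to 5 short motifs: GGGNNNNNCC for NF-kappaB, AANNGAAA for the core of an interferon regulatory factor site, TTCNNNGAA for a STAT site, TGACG for the X2 box and ATTGG for the Y box. Overlapping matches run together.
H2-K1: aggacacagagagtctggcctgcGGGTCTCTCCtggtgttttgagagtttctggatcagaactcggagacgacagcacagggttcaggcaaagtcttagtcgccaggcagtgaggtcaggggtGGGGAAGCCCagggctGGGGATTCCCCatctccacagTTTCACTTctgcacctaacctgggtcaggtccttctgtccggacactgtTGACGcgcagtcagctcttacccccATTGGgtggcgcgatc
H2-D1: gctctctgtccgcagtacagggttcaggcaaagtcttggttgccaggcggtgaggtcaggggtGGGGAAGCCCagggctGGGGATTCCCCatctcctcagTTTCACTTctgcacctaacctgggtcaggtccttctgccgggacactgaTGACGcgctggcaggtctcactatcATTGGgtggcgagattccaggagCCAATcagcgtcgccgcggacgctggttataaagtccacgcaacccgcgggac
B2m: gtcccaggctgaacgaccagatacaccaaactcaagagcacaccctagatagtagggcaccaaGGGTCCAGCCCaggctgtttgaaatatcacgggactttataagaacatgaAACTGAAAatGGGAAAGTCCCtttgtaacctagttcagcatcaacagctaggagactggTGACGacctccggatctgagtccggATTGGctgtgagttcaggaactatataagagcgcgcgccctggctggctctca

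In each of these windows TGACG was followed, 20 bases later, by ATTGG. Allowing 15 to 25 bases between the motifs, a range set after these windows were read, 3 of the 8 member windows held that order, against 125 of 32851 windows in the table (0.381%). The H2-K1 and H2-D1 windows were identical at 174 of 190 aligned bases (91.6%), so they are not independent examples. The single motifs were more common. NF-kappaB letters were in 5 of the 8 windows and in 45.8% of all windows, the interferon regulatory core in 3 and 21.3%, the STAT letters in 1 (Psmb8) and 7.02%, X2 in 5 and 17.8%, and Y in 6 and 33.8%. The Tap1 and Psmb9 windows are largely the same bases on opposite strands, and both enter the NF-kappaB, X2 and Y counts. The near copies H2-K1 and H2-D1 also enter these counts and that of the interferon core. The counts are therefore not of independent windows. A match describes the letters and is not evidence of binding.

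Tap1 and Psmb9 point away from each other, with 225 bases between their starts, and so share a promoter region. It is shown because their levels can be compared over a common stretch (chr17:34187306-34187555, plus strand, read towards Tap1 and reaching just past the start of Psmb9), with capitals as above.
Tap1 and Psmb9: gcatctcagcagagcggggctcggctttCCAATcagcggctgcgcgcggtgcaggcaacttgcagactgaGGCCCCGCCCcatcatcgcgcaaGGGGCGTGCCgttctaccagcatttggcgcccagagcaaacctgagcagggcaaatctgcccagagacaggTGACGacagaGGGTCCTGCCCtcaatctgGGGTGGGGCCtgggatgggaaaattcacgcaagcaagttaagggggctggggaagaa

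Here NF-kappaB letters and X2 were present without the X2 then Y order or the interferon core. Tap1 passed the test in neither setting; Psmb9 did not pass in vivo and was under the filter in culture. H2-K1, H2-D1 and B2m, whose windows held the order, rose in vivo. So did Tapbp, Psmb8 and Psmb10, whose windows held neither X2 nor the interferon core. Whether the order bears on the levels was not tested.

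In regenerating muscle, 6 of the 10 members rose in Chd4dPax7ER satellite cells and none fell. These were H2-K1, H2-D1, B2m, Tapbp, Psmb8 and Psmb10, each between 1.67 and 2.06 times its Chd4fl/fl mean. Across all 13344 genes tested, 14.7% rose. For the same 6 members the groups did not overlap, as for 16% of all tested genes in that direction. The median difference was 0.78 over the 10 members and -0.02 over all tested genes, on the log2(RPKM + 0.5) scale that is used for every difference below and understates changes of low genes. Tests are limma's, with Benjamini-Hochberg adjustment over all genes tested and a threshold of 0.05.

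**Figure D1:**
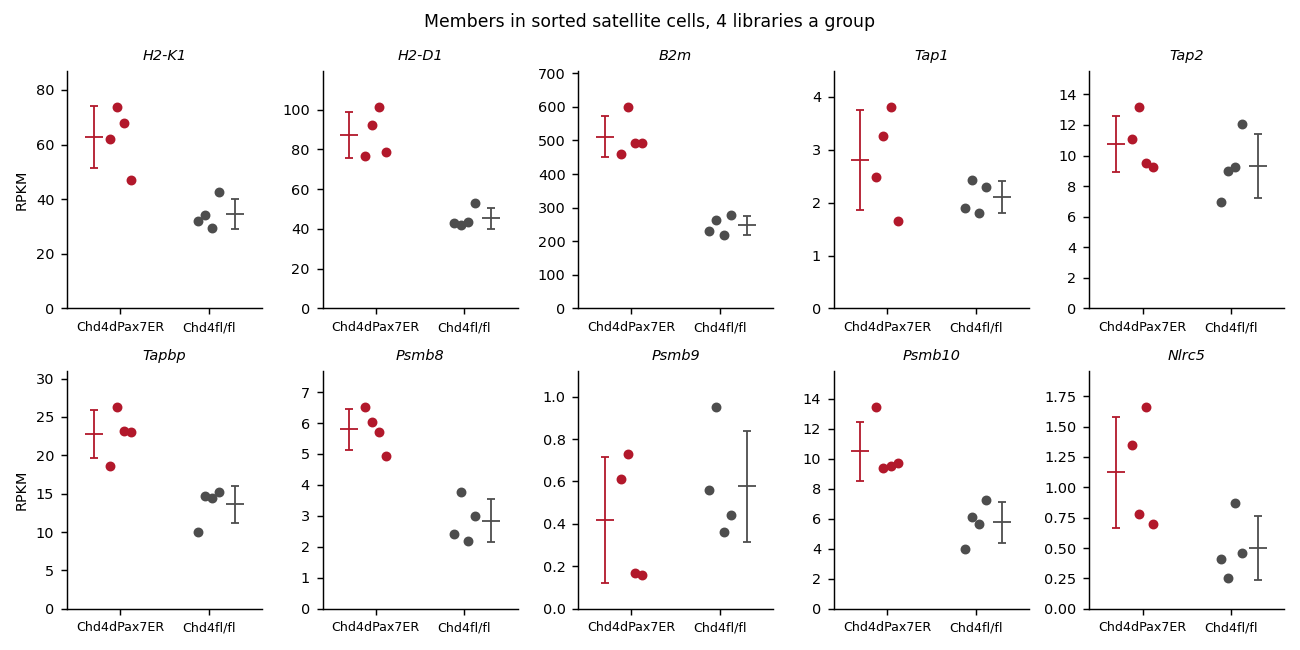
RPKM of the 10 members in each sorted library (vertical axes, each from 0), with Chd4dPax7ER at the left and Chd4fl/fl at the right of each panel; points are libraries, bars are mean ± SD of 4. H2-K1, H2-D1, B2m, Tapbp, Psmb8 and Psmb10 separate the groups fully, and Tap1, Tap2, Psmb9 and Nlrc5 do not.

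B2m, the light chain gene, rose in vivo. It stood at 461, 600, 491 and 492 RPKM in Chd4dPax7ER libraries 1 to 4, against 230, 263, 219 and 279 RPKM in Chd4fl/fl libraries. Every Chd4dPax7ER library was above every Chd4fl/fl library, and the means of 511 ± 61.0 and 248 ± 27.9 RPKM differed by 1.04 on the log2 scale (SE 0.11, limma adjusted p = 0.000271). B2m was the most abundant member in all groups, in both settings.

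Both heavy chain genes rose as well. H2-D1 had 76.7, 92.4, 101.4 and 78.9 RPKM in Chd4dPax7ER cells, against 42.9, 41.9, 43.6 and 53.1 RPKM in Chd4fl/fl cells, a difference of 0.94 (SE 0.11, adjusted p = 0.000568). The lowest Chd4dPax7ER library lay well above the highest Chd4fl/fl library. H2-K1 had 62.1, 73.8, 67.8 and 47.2 RPKM in Chd4dPax7ER cells, against 32.1, 34.3, 29.6 and 42.5 RPKM in Chd4fl/fl cells, a difference of 0.84 (SE 0.15, adjusted p = 0.00404). Here library 4 of each group came close to the other group without crossing it.

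Of the loading machinery, tapasin rose and the transporter genes did not pass. Tapbp had 18.6, 26.3, 23.2 and 23.1 RPKM in Chd4dPax7ER cells, against 10.0, 14.7, 14.5 and 15.3 RPKM in Chd4fl/fl cells (0.73, SE 0.15, adjusted p = 0.00748). Tap1 had 2.49, 3.26, 3.81 and 1.65 RPKM in Chd4dPax7ER cells, against 1.90, 2.43, 1.80 and 2.30 RPKM in Chd4fl/fl cells, and the groups overlapped (0.30, 95% interval -0.20 to 0.80, adjusted p = 0.354). Chd4dPax7ER library 4 was the lowest of all 8. Tap2 had 11.1, 13.2, 9.48 and 9.22 RPKM in Chd4dPax7ER cells, against 6.97, 9.0, 9.26 and 12.0 RPKM in Chd4fl/fl cells, again overlapping (0.21, 95% interval -0.18 to 0.59, adjusted p = 0.406). The upper ends of these intervals reach the size of the B2m estimate for neither transporter gene, and lie above the Tapbp estimate for Tap1 alone.

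The inducible proteasome subunits did not move as a unit. Psmb8, whose product takes the place of the chymotrypsin-like Psmb5, had 6.51, 6.03, 5.70 and 4.93 RPKM in Chd4dPax7ER cells, against 2.42, 3.76, 2.19 and 3.00 RPKM in Chd4fl/fl cells (0.93, SE 0.17, adjusted p = 0.00411). Psmb10, the counterpart of Psmb7, had 13.4, 9.37, 9.49 and 9.70 RPKM in Chd4dPax7ER cells, against 3.98, 6.10, 5.65 and 7.28 RPKM in Chd4fl/fl cells (0.83, SE 0.18, adjusted p = 0.0105). Both separated the groups. Psmb9, the counterpart of Psmb6, was near the lower limit of the table, with 0.61, 0.73, 0.17 and 0.16 RPKM in Chd4dPax7ER cells, against 0.56, 0.95, 0.36 and 0.44 RPKM in Chd4fl/fl cells (-0.26, 95% interval -0.92 to 0.40, adjusted p = 0.550). It reached 0.5 RPKM in just 4 of the 8 libraries.

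Nlrc5 had 1.35, 0.78, 1.66 and 0.70 RPKM in Chd4dPax7ER cells, against 0.41, 0.25, 0.87 and 0.46 RPKM in Chd4fl/fl cells. Chd4fl/fl library 3 lay above 2 Chd4dPax7ER libraries, and the difference of 0.69 (SE 0.27, adjusted p = 0.0919) did not pass. Nlrc5 entered the test through 5 libraries, 4 of them Chd4dPax7ER, so its presence among the tested genes already leans towards a higher Chd4dPax7ER level.

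A ratio within each library compares the inducible subunits with the constitutive ones per length and without the library's total. Psmb8 stood at 16.2, 14.9, 18.9 and 13.7% of Psmb5 in Chd4dPax7ER cells, against 7.50, 11.8, 7.68 and 9.53% in Chd4fl/fl cells. Psmb10 stood at 6.37, 4.56, 5.03 and 4.17% of Psmb7 in Chd4dPax7ER cells, against 1.97, 3.27, 3.04 and 3.86% in Chd4fl/fl cells. Neither ratio overlapped between the groups; each differed by 0.70 on a log2 scale with 0.5 RPKM added to both genes, with an exact two-sided permutation p of 0.0286, the smallest that 70 arrangements can give. Adjusted over the 6 ratio tests of both settings this became 0.0857, which does not pass. Psmb9 stood at 0.83, 1.04, 0.31 and 0.23% of Psmb6 in Chd4dPax7ER cells, against 0.90, 1.67, 0.62 and 0.68% in Chd4fl/fl cells, overlapping (-0.40, exact permutation p = 0.257). The constitutive subunits themselves did not pass in vivo: Psmb5 differed by 0.23 (adjusted p = 0.116), Psmb6 by 0.13 (adjusted p = 0.322) and Psmb7 by 0.13 (adjusted p = 0.216). Over 15 other settings the limma adjusted p of Psmb5 ran from 0.0201 to 0.242, so whether it passed depended on the setting.

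**Figure D2:**
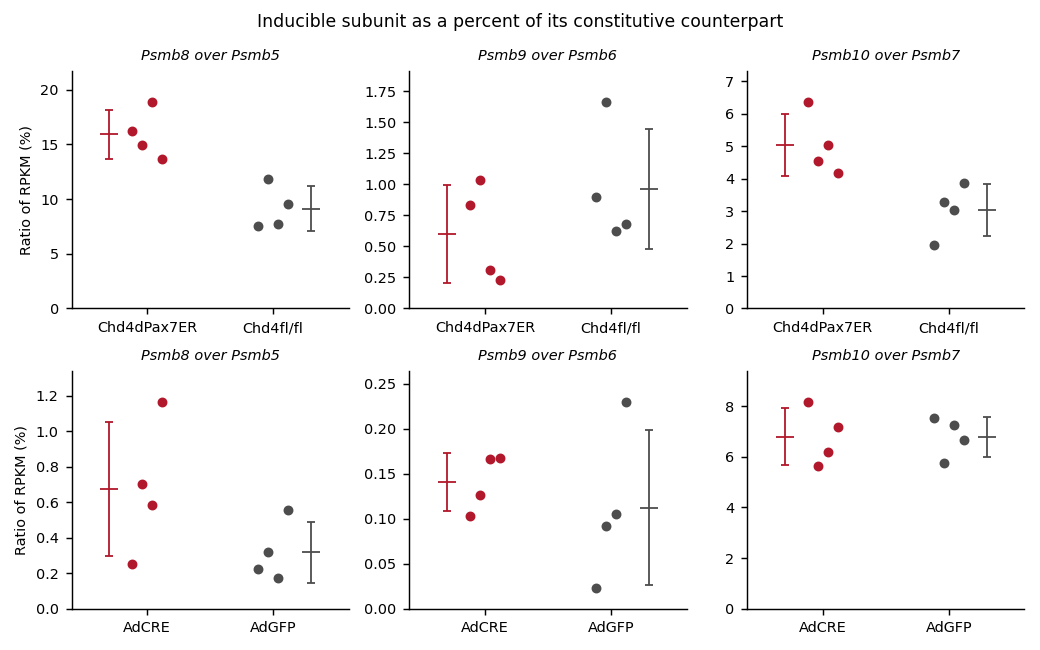
Ratio of RPKM of each inducible subunit to its constitutive counterpart in percent (vertical axes from 0), with sorted cells in the upper row and cultures in the lower; points are libraries, bars are mean ± SD of 4, Chd4dPax7ER and AdCRE at the left. Psmb8 over Psmb5 and Psmb10 over Psmb7 separate Chd4dPax7ER from Chd4fl/fl cells, and none of the ratios separates AdCRE from AdGFP.

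In cultured myoblasts none of the 7 tested members passed at 72 hours, where 0.516% of 13567 genes rose and 0.656% changed in either direction. Counted at an unadjusted p under 0.05, it was also 0 of 7, against 2111 of all 13567 genes. The libraries with the same number were alike, in members as in other genes: deviations from the group means correlated at 0.711 to 0.856 between same-numbered AdCRE and AdGFP libraries over all tested genes, so the number pairs these samples. With the replicate number as a block, H2-D1, B2m and Tapbp rose, and none fell. That is 3 of 7, in a fit where 17.5% of all tested genes rose and 36.2% changed in either direction.

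**Figure D3:**
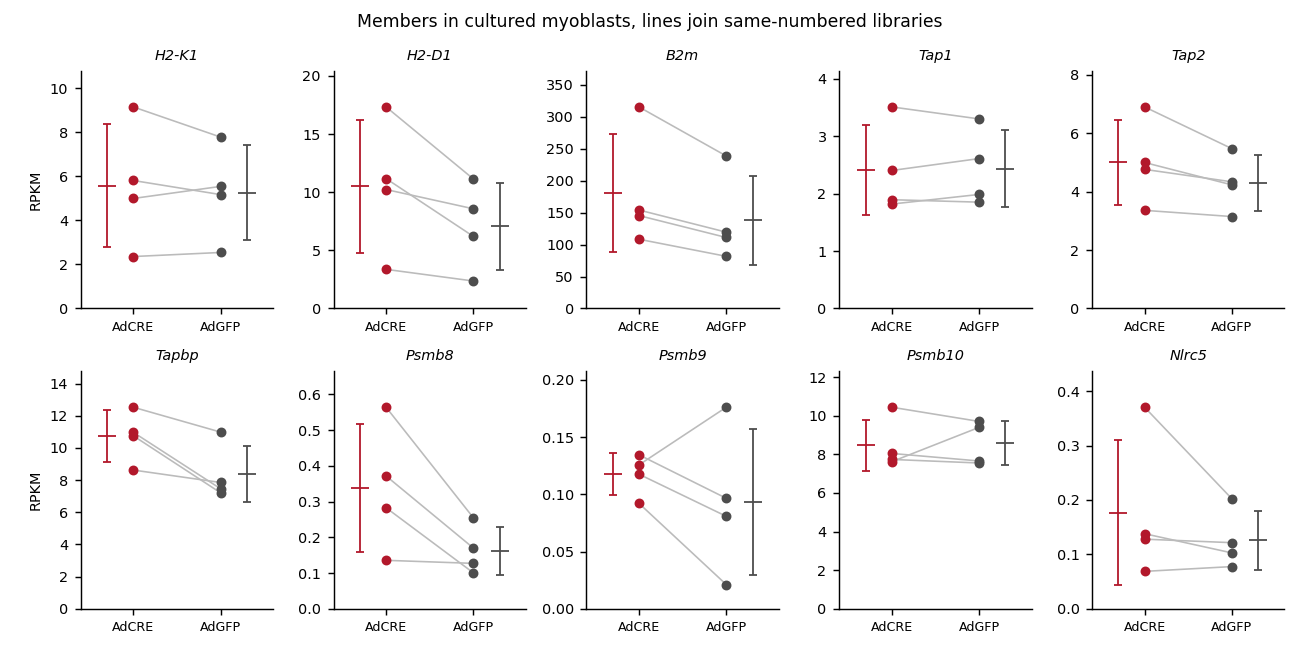
RPKM of the 10 members in each cultured library (vertical axes, each from 0), AdCRE at the left and AdGFP at the right of each panel; points are libraries, lines join libraries of the same number, bars are mean ± SD of 4. For H2-D1, B2m, Tap2, Tapbp and Psmb8 every line is higher at AdCRE, while the groups overlap for all 10 genes.

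B2m had 315, 154, 145 and 108 RPKM with AdCRE in libraries 1 to 4, against 239, 119, 111 and 81.6 RPKM with AdGFP. The groups overlapped, and in both of them library 1 was far above the others and library 4 was the lowest. AdCRE was nonetheless higher in each pair, by 0.40, 0.37, 0.39 and 0.41. The difference of 0.39 had an SE of 0.40 without the block (adjusted p = 0.699) and 0.04 with it (adjusted p = 0.000653). B2m rested on 2836 to 8040 reads in the AdCRE libraries and 2431 to 5312 reads in the AdGFP libraries.

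H2-D1 had 17.3, 11.2, 10.2 and 3.36 RPKM with AdCRE, against 11.1, 6.19, 8.57 and 2.36 RPKM with AdGFP, higher with AdCRE in 4 of 4 pairs (0.52; adjusted p = 0.716 without the block and 0.00473 with it). H2-K1 had 9.14, 5.81, 4.99 and 2.36 RPKM with AdCRE, against 7.78, 5.17, 5.54 and 2.54 RPKM with AdGFP, higher in 2 of 4 pairs (0.04; adjusted p = 0.980 without the block and 0.739 with it). The heavy chain genes thus differed in whether they passed; H2-K1 with the block had a 95% interval of -0.14 to 0.21, and H2-D1 one of 0.31 to 0.73, in this setting. The difference between these genes was not tested.

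Tapbp had 12.5, 11.0, 8.62 and 10.8 RPKM with AdCRE, against 11.0, 7.46, 7.85 and 7.20 RPKM with AdGFP (0.35; adjusted p = 0.335 without the block and 0.0170 with it). Tap2 had 5.00, 4.76, 3.36 and 6.90 RPKM with AdCRE, against 4.23, 4.33, 3.15 and 5.47 RPKM with AdGFP; it was higher in 4 of 4 pairs and missed the threshold with the block (0.18, adjusted p = 0.0504). Tap1 had 2.40, 1.89, 1.82 and 3.51 RPKM with AdCRE, against 2.61, 1.85, 1.99 and 3.30 RPKM with AdGFP, with no common direction (-0.02; adjusted p = 0.811 with the block). Of the tested members 4 of 7 were higher with AdCRE in all pairs, against 25.1% of all tested genes. The groups overlapped for each of them, while 3.8% of all tested genes had every AdCRE library above every AdGFP library.

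Psmb10 was the only inducible subunit with a level above the filter in culture. It had 10.4, 7.73, 7.62 and 8.04 RPKM with AdCRE, against 9.70, 7.55, 9.40 and 7.65 RPKM with AdGFP (-0.02; adjusted p = 0.965 without the block and 0.844 with it). Psmb8 rested on 11, 26, 22 and 47 reads with AdCRE, against 9, 11, 7 and 27 reads with AdGFP, or 0.339 ± 0.179 and 0.163 ± 0.0674 RPKM. It was higher in all 4 pairs; without the filter on low values and with the block, its adjusted p was 0.0959. Psmb9 had 10, 11, 14 and 14 reads with AdCRE, against 2, 7, 9 and 25 reads with AdGFP. Nlrc5 had 84, 25, 30 and 16 reads with AdCRE, against 40, 22, 20 and 23 reads with AdGFP. At these depths no difference was detectable for Psmb9 or Nlrc5. None of the 3 subunit ratios separated the groups in culture: Psmb8 over Psmb5 averaged 0.676 ± 0.379% with AdCRE and 0.319 ± 0.171% with AdGFP (exact permutation p = 0.2, and 0.125 within pairs, the smallest that 16 arrangements can give).

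Whether the effect in sorted cells differed from that in culture was tested as a contrast over all 16 libraries, for 11941 genes tested in both tables. None of the 7 members passed, against 4.12% of all genes. At an unadjusted p under 0.05 there was 1 of 7, against 2266 of all 11941 genes. It was Psmb10, with a difference of effects of 0.85 (0.83 in vivo and -0.02 in vitro, SE 0.23, adjusted p = 0.0553). When the in vitro pairs entered as a block, 3 of 7 passed, all larger in vivo, where 6.24% of all genes did so. These were B2m (0.65, adjusted p = 0.00771), H2-K1 (0.80, adjusted p = 0.0232) and Psmb10 (0.85, adjusted p = 0.0332). H2-D1 (0.41), Tapbp (0.38), Tap1 (0.32) and Tap2 (0.02) did not pass, with adjusted p of 0.124, 0.251, 0.486 and 0.963 with the block.

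**Figure D4:**
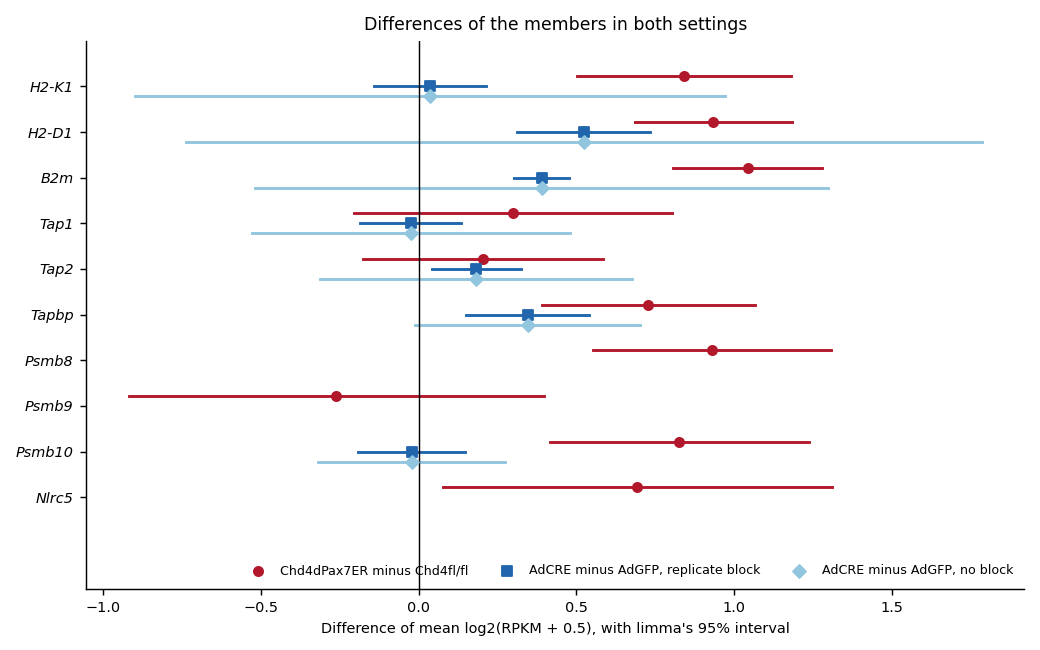
Difference in mean log2(RPKM + 0.5) for each member (horizontal axis), with limma's unadjusted 95% interval as a line; circles are Chd4dPax7ER minus Chd4fl/fl, squares AdCRE minus AdGFP with the replicate block, and diamonds the same without it. The in vivo estimates of H2-K1, H2-D1, B2m, Tap1, Tapbp and Psmb10 lie above their in vitro block intervals and that of Tap2 lies within it; Psmb8, Psmb9 and Nlrc5 were under the filter in culture and have no in vitro symbol.

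Members also varied among themselves within a group. In culture the class I genes were highest in library 1 and lowest in library 4 of both groups, with H2-D1 spanning 5.15-fold with AdCRE and 4.72-fold with AdGFP. For Tap1, Tap2 and Psmb8 library 4 was instead the highest in both groups, and the lowest library varied. About the group means, over 8 libraries, H2-K1 correlated with H2-D1 at r = 0.99, with B2m at 0.90 and with Nlrc5 at 0.84, and with Psmb8 at -0.89; Tap1 correlated with Tap2 at 0.84. Same-numbered libraries were alike, so these values describe 4 pairs rather than 8 independent samples. In sorted cells H2-K1 correlated about the group means with Tap1 at 0.84, with H2-D1 at 0.74 and with B2m at 0.69.

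The 5 other genes whose pattern was closest to the mean standardised pattern of the tested members, out of 10618 with a mean of at least 1 RPKM in both tables, were Grn, Atp6v0d1, Pld3, Grina and Sertad1. Their Pearson correlations over 8 libraries were 0.96, 0.95, 0.98, 0.98 and 0.95 in vitro and 0.97, 0.97, 0.95, 0.95 and 0.96 in vivo. They are given as a description with no test, since every library enters both the pattern and the group comparison.

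Of 15 other class I heavy chain genes listed, 8 were tested in sorted cells; 3 of the 8 rose and none fell, where 14.7% of all tested genes rose. H2-Q6 had 8.33, 9.99, 4.74 and 3.27 RPKM in Chd4dPax7ER cells, against 1.06, 1.29, 0.48 and 0.70 RPKM in Chd4fl/fl cells (2.28, adjusted p = 0.00165). H2-Q7 averaged 1.30 ± 0.307 RPKM in Chd4dPax7ER cells and 0.307 ± 0.136 RPKM in Chd4fl/fl cells (1.16, adjusted p = 0.00486), and entered the test through 5 libraries. These were every Chd4dPax7ER library and Chd4fl/fl library 3 (0.51 RPKM), so its presence among the tested genes already leans towards a higher Chd4dPax7ER level. Reads of the H2-Q genes may be shared with H2-K1 and H2-D1. Mr1, which presents vitamin metabolites to T cells, averaged 1.26 ± 0.272 RPKM in Chd4dPax7ER cells and 0.677 ± 0.0206 RPKM in Chd4fl/fl cells (0.57, adjusted p = 0.0461), a call lost under 12 of 15 other settings. In culture none of the 5 tested passed, and with the block 1 rose, Cd1d1 (0.55, adjusted p = 0.00234), named after its values were seen. In that fit 17.5% of all tested genes rose.

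Among all genes tested in vivo, 14.7% rose and 11.9% fell. Of 11 peptide loading and trimming genes in vivo, 2 rose and 1 fell. The lectin chaperone genes Calr (458 ± 43.7 RPKM in Chd4dPax7ER cells and 359 ± 17.4 RPKM in Chd4fl/fl cells; 0.35, adjusted p = 0.0108) and Canx (0.31, adjusted p = 0.0133) were the ones that rose. Tpp2, a cytosolic peptidase, fell by 0.23 (adjusted p = 0.0472), a call lost under 11 of 15 other settings. Of the 9 proteasome activator and assembly genes, 2 rose and 2 fell: the interferon-inducible activator subunits Psme1 (30.1 ± 1.25 RPKM in Chd4dPax7ER cells and 21.4 ± 2.92 RPKM in Chd4fl/fl cells; 0.49, adjusted p = 0.00613) and Psme2 (0.38, adjusted p = 0.0183) were higher, and the assembly chaperones Psmg1 (-0.25, adjusted p = 0.0407) and Psmg2 (-0.41, adjusted p = 0.0456, named after its values were seen) were lower. The call of Psme2 was lost under 1 of 15 other settings, the replicate block, that of Psmg1 under 10 and that of Psmg2 under 9. Of the 11 other core subunits Psmb4 rose (0.35, adjusted p = 0.00963) and Psma1 fell (-0.26, adjusted p = 0.0371), a call lost under 8 of 15 other settings. In culture no gene of these 3 lists passed without the block; with it 2 of 11 loading genes rose and 1 fell, 1 of 9 activator and assembly genes rose and 1 fell, and 2 of 11 core subunits fell, in the fit where 17.5% of all tested genes rose and 36.2% changed.

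Transcription factors known to act on class I genes, listed together with the histone methyltransferase gene Ezh2, mostly did not pass. Of 21 tested in vivo, 2 rose and 1 fell, where 14.7% of all tested genes rose and 11.9% fell. Irf7, an interferon regulatory factor, had 2.73, 3.74, 3.38 and 3.00 RPKM in Chd4dPax7ER cells, against 1.20, 1.94, 1.82 and 1.75 RPKM in Chd4fl/fl cells (0.78, adjusted p = 0.00960). Stat2, which carries type I interferon signals, averaged 10.8 ± 1.71 RPKM in Chd4dPax7ER cells and 6.58 ± 1.21 RPKM in Chd4fl/fl cells (0.68, adjusted p = 0.0111). Ezh2, a histone methyltransferase that represses genes, averaged 16.2 ± 2.85 RPKM in Chd4dPax7ER cells and 25.7 ± 4.43 RPKM in Chd4fl/fl cells (-0.65, adjusted p = 0.0149). In culture none of 20 passed. With the block 2 rose and 3 fell, in the fit where 17.5% of all tested genes rose and 36.2% changed. Irf7 was higher (0.71, limma adjusted p = 0.106 without the block and 0.00125 with it). Ezh2 was lower (-0.73, limma adjusted p = 0.151 without the block and 0.00042 with it).

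Of 7 interferon genes listed, 6 were under the filter in vivo and all 7 in culture. Ifng was listed at 0 in all libraries of both tables. Ifnb1 was tested in vivo, with 2.20, 1.39, 0.62 and 0 RPKM in Chd4dPax7ER cells, against 0.42, 0, 0.22 and 1.37 RPKM in Chd4fl/fl cells (0.55, adjusted p = 0.506). Of 14 interferon-gamma responsive genes 2 rose in vivo, a share close to the 14.7% of all genes. Counted by direction alone, 11 were higher and 3 lower, with a median difference of 0.58 against -0.02 over all tested genes. The adhesion molecule gene Icam1 had 35.2, 52.8, 39.0 and 46.2 RPKM in Chd4dPax7ER cells, against 1.37, 2.37, 1.58 and 4.56 RPKM in Chd4fl/fl cells (3.98, adjusted p = 6.44e-05). The immunity GTPase gene Irgm1 rose by 0.78 (adjusted p = 0.0484), a call lost under 10 of 15 other settings. In culture 1 of 8 rose, Icam1 again (1.10, adjusted p = 0.0345), and 5 of 8 with the block. Among all genes tested in culture, 0.516% rose without the block and 17.5% with it. Icam1 reached 0.5 RPKM in the 4 AdCRE libraries alone, so it was tested only through the group where it is high, and its call was lost under 7 of 24 other settings. Of 11 interferon receptor, kinase and feedback genes 1 rose in vivo, the feedback gene Usp18 (1.03, adjusted p = 0.0351), named after its values were seen, a call lost under 7 of 15 other settings. In culture 3 of 10 rose and 2 fell with the block, against 17.5% of all tested genes that rose, and none passed without it. Class II genes, which present peptides to CD4 T cells, did not pass: 0 of 7 tested were called in vivo, and Ciita, their transactivator, was at 0 to 0.03 RPKM in Chd4dPax7ER cells and 0 to 0.06 RPKM in Chd4fl/fl cells.

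**Figure D5:**
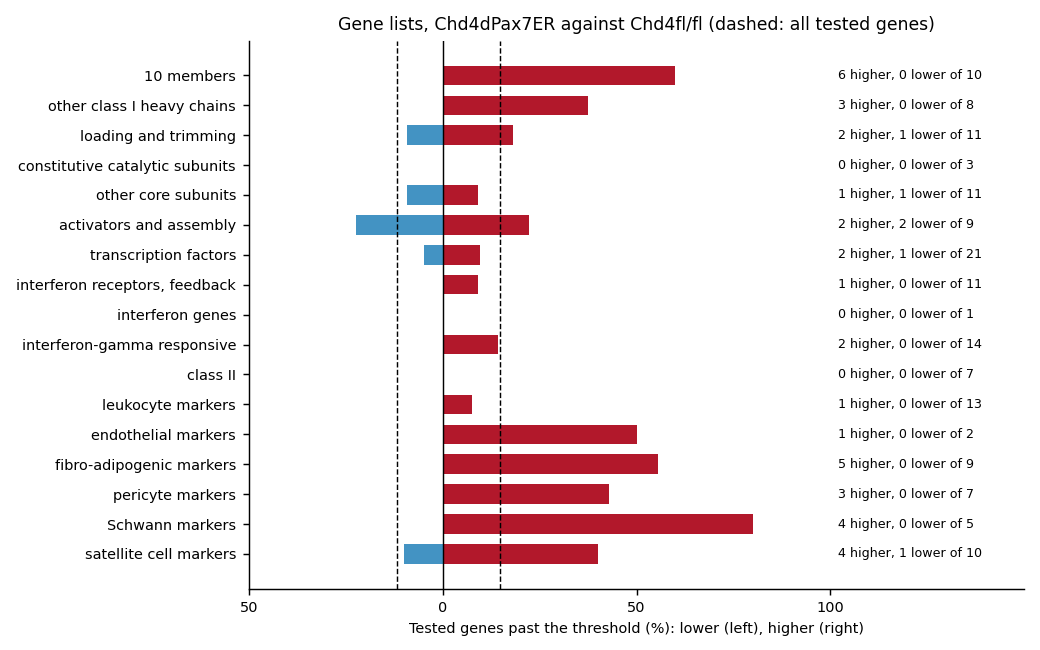
Percent of tested genes past the threshold in each list, Chd4dPax7ER against Chd4fl/fl, with genes that rose to the right of 0 and genes that fell to the left; dashed lines are the 14.7% and 11.9% of all tested genes, and counts stand at the right. The 10 members (6 higher) pass the line at the right. So do the other class I, loading, activator and satellite cell lists, and the Schwann, fibro-adipogenic, pericyte and endothelial marker lists. The remaining lists, among them the leukocyte, class II, interferon and constitutive subunit lists, do not.

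In sorted cells 14.7% of all tested genes rose. Counted by calls, fibro-adipogenic, pericyte, Schwann, endothelial and satellite cell markers rose more often than that, and leukocyte markers did not. The endothelial share rests on 2 tested genes. Of the 13 leukocyte markers tested, 10 were higher and 3 lower, with a median difference of 0.39 against -0.02 over all tested genes. Nearly all cell types, satellite cells included, make class I transcripts. The marker lists therefore do not tell which cells the member RNA came from. Of 20 leukocyte markers 13 were tested and 1 rose, Laptm5 (6.01 ± 1.59 RPKM in Chd4dPax7ER cells and 2.72 ± 0.693 RPKM in Chd4fl/fl cells; 1.01, adjusted p = 0.00659). The summed level of the leukocyte list was 100 to 214 RPKM in Chd4dPax7ER libraries and 80.2 to 154 RPKM in Chd4fl/fl libraries; Cd8a and Nkg7 were at 0 in all 8, and Ptprc, the CD45 gene used in the sort, was at 0.29 to 0.59 RPKM in Chd4dPax7ER libraries and 0.16 to 0.48 RPKM in Chd4fl/fl libraries. Fibroblast and fibro-adipogenic markers rose in 5 of 9, with sums of 301 to 491 RPKM in Chd4dPax7ER libraries and 126 to 176 RPKM in Chd4fl/fl libraries. Ly6a, the SCA1 gene used in the sort, did not pass (8.86 ± 2.93 RPKM in Chd4dPax7ER cells and 5.52 ± 3.05 RPKM in Chd4fl/fl cells; 0.77, adjusted p = 0.191). Of pericyte markers 3 of 7 rose, of Schwann cell markers 4 of 5, and of endothelial markers 1 of 2. The Schwann cell markers Sox10 and S100b reached 0.5 RPKM in the 4 Chd4dPax7ER libraries alone, so they were tested only through the group where they are high. Satellite cell markers were at 1116 to 1346 RPKM in Chd4dPax7ER libraries and 694 to 870 RPKM in Chd4fl/fl libraries. Of the 10, 4 rose, among them Des, Myod1 and Itga7, and 1 fell, Pax7 (-0.85, adjusted p = 0.0301). Pax7 averaged 11.5 ± 2.94 RPKM in Chd4dPax7ER cells and 21.3 ± 6.43 RPKM in Chd4fl/fl cells. It was named after its values were seen, and its call was lost under 5 of 15 other settings. Itga7, the gene of the alpha7-integrin used in the sort, was also named after its values were seen. Cd34, also used in the sort, did not pass. The part of these cell types in the member differences was not tested.

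In culture Ptprc was at or near 0 and H2-Aa was at 0 in every library, and Adgre1 and S100a9, macrophage and neutrophil markers, were at 0. The leukocyte list summed to 19.7 to 29.8 RPKM with AdCRE and 7.47 to 12.6 RPKM with AdGFP, of which Laptm5 and Cd68 made up most; with the block both rose, 2 of 3 tested. Of 9 fibro-adipogenic markers 4 were tested and 2 rose, Ly6a (2.13, adjusted p = 0.0113) and Col1a1 (1.62, adjusted p = 0.0175); Col1a1 reached 0.5 RPKM in the 4 AdCRE libraries alone. With the block 3 of the 4 rose and 1 fell, Col3a1 (52.9 ± 22.2 RPKM with AdCRE and 61.9 ± 21.7 RPKM with AdGFP; -0.25, adjusted p = 0.00983). Of 5 pericyte markers tested 1 rose, Rgs5 (2.06, adjusted p = 0.0309). It averaged 273 ± 95.8 RPKM with AdCRE and 65.6 ± 26.2 RPKM with AdGFP. Among all genes tested in culture, 0.516% rose without the block and 17.5% with it. Of 24 other settings, 2 lost the call of Ly6a, 7 that of Col1a1 and 8 that of Rgs5. Their part in the block results of B2m, H2-D1 and Tapbp was not tested.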

How the data were processed

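For each setting the authors deposited RPKM values in 1 table, with Ensembl identifiers and symbols; the 10 members were taken by symbol. The submitters' processing notes name HISAT2 2.1.0 and cutadapt 1.18 among their tools, on build GRCm38 (mm10). No source used here says which program counted reads, with which gene lengths, or how multiply mapped reads were treated. RPKM carries no SE of its own, and a gene's value falls when other genes take more of a library's reads.

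Values were tested as log2(RPKM + 0.5) with limma 3.58.1 (R 4.3.3, variance trend on), within each table, for genes at 0.5 RPKM or more in at least 4 of 8 libraries, with Benjamini-Hochberg adjustment and a threshold of 0.05. The difference of effects was a contrast over all 16 libraries. The fit was tested on simulated data. Whole reads were recovered from the in vitro RPKM (100% of values whole within 0.02 reads over 24931 genes); no count test was run on them. Same-numbered libraries correlated at 0.711 to 0.856 in vitro and at -0.0967 to 0.0499 in vivo, so the number was taken to pair the in vitro samples alone. Subunit ratios were compared with exact permutation tests. Promoter motifs were searched on both strands.

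The members and the 16 other gene lists were chosen with earlier results of these data known. Named genes are all members and, of each other list, at most 3 that passed without overlap between the groups, by size of difference; other genes named were chosen after their values were seen. Alternatives were other pseudocounts, no filter, 2 rescalings, no trend, the block and each library left out.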

Additional observations from a re-analysis of the deposited data

Results flagged for a closer look

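Among the 40 groups of 4 libraries formed by the 10 members, 5 held a library far from the other 3 by Dixon's criterion, and chance flags about 1 group in 20. In vivo these were Psmb10 in Chd4dPax7ER library 1 (13.4 RPKM, above the rest), H2-D1 in Chd4fl/fl library 4 (53.1 RPKM, above the rest) and Tapbp in Chd4fl/fl library 1 (10.0 RPKM, below the rest). In vitro they were Psmb10 in AdCRE library 1 (10.4 RPKM, above the rest) and Tapbp in AdGFP library 1 (11.0 RPKM, above the rest). The in vivo calls of Psmb10, H2-D1 and Tapbp passed with any single library left out.

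The effects in sorted cells and in culture differed for 3 of 7 members when the in vitro pairs entered as a block: H2-K1 by 0.80, B2m by 0.65 and Psmb10 by 0.85, in vivo minus in vitro on the log2 scale. Without the block none of the 3 passed (limma adjusted p = 0.372, 0.455 and 0.0553).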

How the results depend on the processing

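In vivo 6 members passed in all 15 alternatives, the same 6 genes each time, and the other 4 in none. In vitro the count of members past the threshold was 3 with the replicate block and 0 without it, the choice on which the culture results depend; the block with no filter gave 2, with TPM scaling 3, with quantile scaling 4, with pseudocount 0.1 4 and with pseudocount 1 3, all 5 chosen after seeing the data, and with a pair left out 2 to 3. With single libraries left out and no block it was 0 to 0. B2m and H2-D1 passed in all 10 block fits, Tapbp in 7 and Tap2 in 2. For the difference of effects the count was 0, or 3 with the block, and 0 to 1 with a library left out, where Psmb10 passed without AdCRE replicate 1 or Chd4fl/fl replicate 4. The cause was not tested.

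Over all genes the block gave 4907 genes in vitro against 89 without it, and 1294 differing effects against 492, and leaving out a library gave 16 to 44 in vitro. In vivo, TPM scaling gave 1698 genes higher and 1960 lower, and quantile scaling 1751 and 1949, against 1960 and 1588.

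Small values changed sign. Psmb10 in vitro was 0.0045 with quantile scaling, also with the block; the Tap2 difference of effects was -0.0084 with TPM and -0.016 with quantile scaling. With libraries left out, in vitro H2-K1 ranged from -0.24 to 0.36, Tap1 from -0.19 to 0.11 and Psmb10 from -0.12 to 0.038. With a pair left out of the block, H2-K1 was -0.0245 and -0.00235 without pairs 1 and 2, Tap1 0.00081 and 0.0012 without pairs 1 and 3, and Psmb10 0.067 without pair 3. The difference of effects ranged from -0.029 to 0.82 for H2-D1 and from -0.14 to 0.18 for Tap2. Of the 24 calls printed in vivo for genes other than members, Chd4 and Itga7, 15 passed in every alternative and 9 were lost in some. Of the 4 printed in vitro without the block, none passed in every alternative. The exact p of the subunit ratios cannot reach 0.05 with a library left out, so those alternatives say nothing of stability. Low read counts limit Psmb8, Psmb9 and Nlrc5 in culture; the depth in vivo is unknown.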
